A study of Bos taurus with 4 samples.

Results

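The genes described are 8 transcription factor genes of the intestinal epithelium, HNF4A, HNF4G, CDX1, CDX2, GATA4, GATA6, FOXA3 and KLF5, chosen by symbol. Each had 1 row among the 29792 rows of the deposited count tables, and all 8 reached at least 10 reads in at least 1 library. The samples were 4 libraries of Hanwoo cattle (Bos taurus), 1 each of small intestine tissue, muscle tissue, intestinal organoids at passage 5 (P5 organoids) and intestinal organoids at passage 10 (P10 organoids). Organoids are three-dimensional cultures, here grown in Matrigel and IntestiCult medium from crypts that had been isolated from the jejunum of healthy animals over 24 months old. No group carried a transgene, a deletion or a drug treatment. The sources used here do not state whether the tissues and the organoids came from the same animal or whether both passages came from 1 culture. For the sequenced intestine tissue, the sample title and the paper's account of the sequencing name no segment of the small intestine. Since each group has 1 library, no difference has a replicate check, no p-value is given, and an effect of passage and a difference between cultures or animals cannot be told apart.

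These genes encode proteins that bind DNA and together keep the identity of the gut epithelium. HNF4A and HNF4G are paired nuclear receptors that hold open the enhancers of enterocyte genes such as those for fat absorption and the brush border. CDX1 and CDX2 are homeobox factors that separate intestine from stomach, with activity that increases from the proximal to the distal gut. GATA4 and GATA6 are zinc finger factors: GATA6 is made along the whole intestine, whereas GATA4 is made in duodenum and jejunum, is nearly absent from the ileum, and in mice represses ileal genes such as the bile acid transporter gene SLC10A2. FOXA3 is a forkhead factor of endoderm-derived epithelium, and KLF5 is a zinc finger factor of dividing crypt cells. The ratio of GATA4 to the other factors is therefore looked at as a possible sign of gut region. Whole tissue also holds RNA of other cells, so in tissue the ratio is not that of the epithelium alone.

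RNA was sequenced with QuantSeq, which reads only the end of each polyadenylated transcript, so a count does not grow with transcript length. The yield per transcript still differs between genes, and therefore a ratio of 2 genes was only compared between libraries. The libraries held 12917720 to 17776273 reads, and 1 read was worth 0.0563 to 0.0774 counts per 1000000 reads (CPM). Levels are given in reads and CPM with exact 95% Poisson limits. Differences are on the scale log2(quantile-normalised reads + 1), with 95% limits that cover counting error only. In muscle, the row of the ribosomal RNA gene RN18S1 took 23.6% of the reads, against 0.264% to 4.81% in the other libraries, and this pulls the CPM of all other genes in muscle down. The muscle library held 529725 reads of 6 skeletal muscle genes, against 34 to 60 in each other library. The epithelial reference genes (EPCAM, CDH1, KRT8, KRT18, KRT19, CLDN3, CLDN4, CLDN7, ESRP1 and GRHL2) summed to 2108 CPM in intestine, 10762 at P5, 9921 at P10 and 41.8 in muscle. Markers of the cells around the epithelium were near absent from organoids: 6 fibroblast genes summed to 998 CPM in intestine and 3.68 and 0.282 CPM in P5 and P10 organoids, 6 smooth muscle genes to 2275, 12.6 and 7.56 CPM, 6 immune genes to 288, 4.56 and 5.58 CPM, and 4 endothelial genes to 43.8, 1.54 and 2.31 CPM. DES and ACTG2 of smooth muscle, COL3A1, DCN and LUM of fibroblasts, KDR of endothelium and CD2 and MS4A1 of lymphocytes had no reads in either organoid library. In all, 3 of 6 smooth muscle, 3 of 6 fibroblast, 3 of 6 immune and 1 of 4 endothelial genes were at 0 in P5 organoids. The part of these other cells in the differences from intestine was not tested, and in bulk RNA fewer cells of a type and less RNA per cell cannot be told apart.

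GATA4 was the member most depleted in organoids. It had 2919 reads in intestine, 82 at P5, 88 at P10 and 17 in muscle. These counts correspond to 164 CPM (limits 158 to 170), 6.03 CPM (4.80 to 7.48), 4.96 CPM (3.98 to 6.11) and 1.32 CPM (0.767 to 2.11). Both organoid libraries were far below intestine, and their limits overlapped each other. The log2 difference from intestine was -4.88 (limits -5.17 to -4.60) in P5 organoids and -5.15 (-5.42 to -4.91) in P10 organoids. Of all rows tested, 4.98% were at least as far below intestine in P5 and 4.91% in P10 organoids, so a loss of this size was uncommon but not rare among genes. With quantile normalisation the passages did not differ beyond counting error (log2 difference -0.27, limits -0.65 to 0.10). GATA4 in P10 organoids was also not separable from muscle with quantile normalisation (0.82, limits -0.04 to 1.73), although per library total it was 3.77-fold higher (2.23 to 6.76).

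GATA6, the closest relative of GATA4 among the members, did not share this pattern. Its counts were 1457 reads in intestine, 1335 at P5, 2489 at P10 and 9 in muscle. Between P5 organoids and intestine it did not differ beyond counting error with quantile normalisation (log2 difference 0.03, limits -0.09 to 0.13), and per library total P5 organoids were 1.20-fold higher (1.11 to 1.29). P10 organoids lay 0.53 above intestine (0.43 to 0.63) and 0.51 above P5 organoids (0.41 to 0.61). The sum of both genes was 246 CPM in intestine, 104 CPM in P5 organoids and 145 CPM in P10 organoids, with both organoid libraries below intestine.

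**Figure D1:**
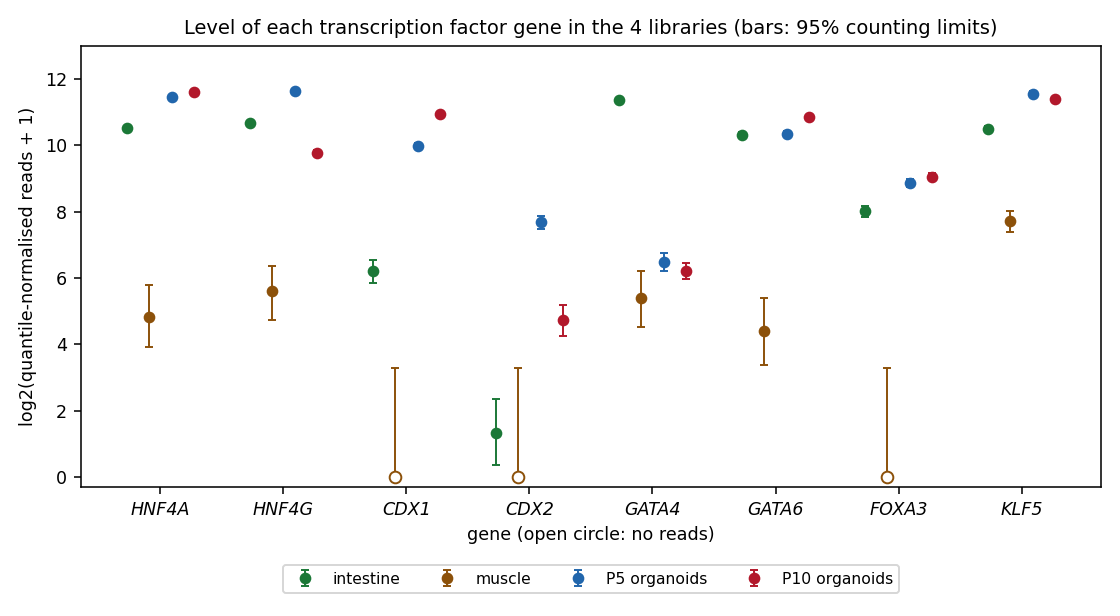
Level of the 8 genes in the 4 libraries as log2(quantile-normalised reads + 1), with 1 point per library, bars for 95% counting limits and open circles for libraries with no reads. GATA4 is the only gene of the 8 whose intestine point (2919 reads) lies above both organoid points, whereas CDX1 (112 reads) and CDX2 (4 reads) lie far below both organoid points there.

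The CDX genes ran the other way. CDX1 had 112 reads in intestine, 1040 at P5, 2613 at P10 and none in muscle, or 6.30 CPM (limits 5.19 to 7.58), 76.5 CPM (71.9 to 81.3) and 147 CPM (142 to 153) in the first 3. No limits overlapped, and the order was intestine, P5, P10. The log2 difference from intestine was 3.79 (3.42 to 4.14) in P5 organoids and 4.74 (4.38 to 5.09) in P10 organoids, and P10 organoids were 0.95 above P5 organoids (0.84 to 1.06), just under 2-fold. Only 4.04% and 2.11% of the rows tested were as far above intestine in P5 and P10 organoids.

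CDX2, the factor best known for fixing intestinal identity, was sparsely counted. It had 4 reads in intestine, 199 at P5, 24 at P10 and none in muscle, or 0.225 CPM (0.0613 to 0.576), 14.6 CPM (12.7 to 16.8) and 1.35 CPM (0.867 to 2.01) in the first 3. CDX2 lay 6.36 (5.30 to 7.32) above intestine in P5 organoids and 3.41 (2.26 to 4.46) above it in P10 organoids on the log2 scale. Per library total the same differences were 65.0-fold (25.0 to 241) and 6.02-fold (2.07 to 23.9), since 4 reads fix the intestine level only loosely. Between the passages CDX2 was lower at P10, with a log2 difference of -2.95 (-3.48 to -2.45), so the 2 CDX genes lay in opposite directions between the passages. CDX2 made up 16.1% of the summed CDX reads in P5 organoids (exact binomial limits 14.1 to 18.2), 0.910% in P10 organoids (0.584 to 1.35) and 3.45% in intestine (0.947 to 8.59). The sum of both was 6.53 CPM in intestine, 91.1 CPM in P5 organoids and 149 CPM in P10 organoids. The low CDX2 count in intestine lay near the floor of 3 reads, so it can be read neither as absence of the factor nor as its level in the epithelium.

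The HNF4 pair was well counted in every library except muscle. HNF4A had 1652 reads in intestine, 2891 at P5, 4136 at P10 and 12 in muscle. HNF4G had 1852 reads in intestine, 3180 at P5, 1207 at P10 and 19 in muscle. In P5 organoids both were higher than intestine by the same amount, with a log2 difference of 0.96 for HNF4A (0.86 to 1.05) and 0.96 for HNF4G (0.86 to 1.05). In P10 organoids they parted: HNF4A was 1.10 above intestine (1.01 to 1.18) and HNF4G lay below it (log2 difference -0.93, limits -1.03 to -0.82). Between the passages HNF4A was nearly level with quantile normalisation (0.14, limits 0.07 to 0.22). HNF4G was lower at P10 by -1.88 (-1.99 to -1.77), a size that 7.71% of the rows tested reached in this direction. The share of HNF4G in the summed HNF4 reads, which does not depend on scaling, was 52.9% in intestine (51.2 to 54.5), 52.4% in P5 organoids (51.1 to 53.6) and 22.6% in P10 organoids (21.5 to 23.7). The shares of intestine and P5 organoids overlapped in their limits, and P10 organoids stood apart.

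FOXA3 and KLF5 differed little between the passages with quantile normalisation. FOXA3 had 316 reads in intestine, 474 at P5, 750 at P10 and none in muscle, and lay 0.86 (0.64 to 1.07) and 1.04 (0.83 to 1.25) above intestine in P5 and P10 organoids. KLF5 had 1629 reads in intestine, 3045 at P5, 3533 at P10 and 76 in muscle, and lay 1.06 (0.96 to 1.17) and 0.89 (0.81 to 0.99) above intestine. P10 organoids were 0.18 above P5 organoids for FOXA3 (0.02 to 0.35) and below them for KLF5 (-0.17, limits -0.25 to -0.09). Both genes thus sat close to 2-fold above intestine in each organoid library.

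Counted at 2-fold, 3 of the 8 members were higher in P5 organoids than intestine (CDX1, CDX2 and KLF5), 1 was lower (GATA4) and 4 were within 2-fold. Among all 17783 rows tested in that comparison, 24.9% were at least 2-fold higher and 22.8% at least 2-fold lower. In P10 organoids 4 members were at least 2-fold higher than intestine (HNF4A, CDX1, CDX2 and FOXA3) and 1 was lower (GATA4), against 28% and 26.1% of all rows. Between P10 and P5 organoids no member was at least 2-fold higher and 2 were lower (HNF4G and CDX2), against 16.1% and 16.6% of all rows. Both organoid libraries were set against the same intestine library, so these comparisons are not independent. These counts are too near the shares of all rows to set the members apart as a list, and several members sat at the threshold. With library totals or upper-quartile scaling, HNF4A and HNF4G also passed 2-fold in P5 organoids, which made 5 members higher. The median log2 difference of the members was 0.96 in P5 and 0.97 in P10 organoids against intestine, beside 0.11 and 0.11 over all rows, and -0.01 beside 0.06 between the passages. Of all rows past 2-fold, 52.3% in P5 and 51.7% in P10 organoids were higher than intestine, and edgeR's TMM scaling made this 40.5% and 41.0%.

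**Figure D2:**
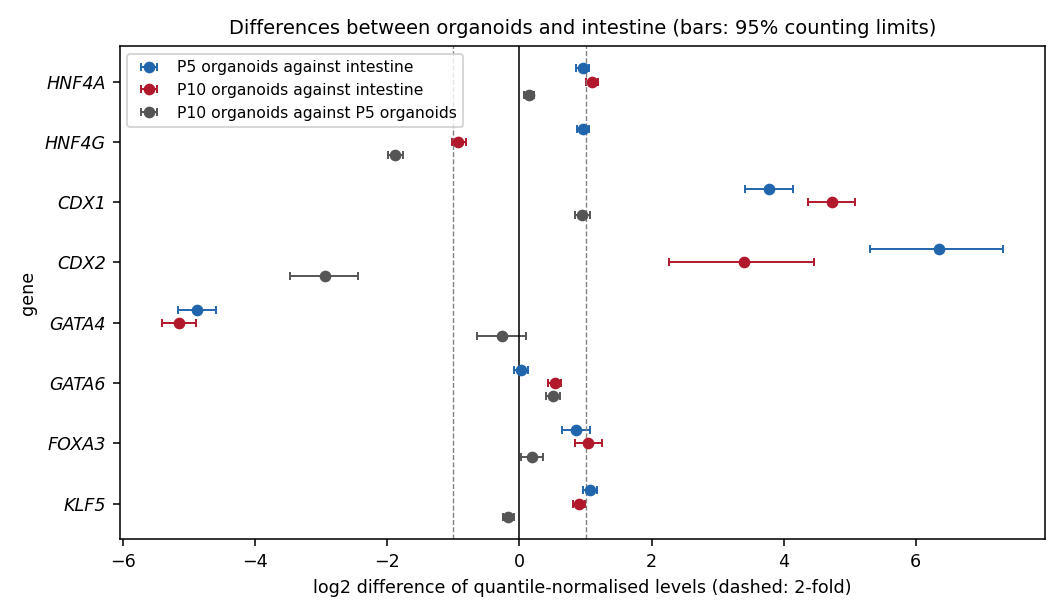
Log2 differences of the 8 genes between organoids and intestine and between the passages, on the log2(quantile-normalised reads + 1) scale, with bars for 95% counting limits and dashed lines at 2-fold. HNF4A, HNF4G, FOXA3 and KLF5 cluster near the upper dashed line in P5 organoids, CDX1 and CDX2 lie far to the right and GATA4 far to the left (-4.88 and -5.15).

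The ratio of GATA4 to each other member is free of the scaling between libraries, and it separated intestine from both organoid libraries for all 7 partners. The 7 ratios share the same GATA4 counts, so they are not independent and largely restate the low GATA4 count in organoids. GATA4 was 66.7% of the GATA4 and GATA6 reads in intestine (exact binomial limits 65.3 to 68.1), 5.79% in P5 organoids (4.63 to 7.13) and 3.41% in P10 organoids (2.75 to 4.19). There were 2.0 GATA4 reads per GATA6 read in intestine, 0.0614 in P5 and 0.0354 in P10 organoids. The GATA4 to GATA6 ratio was 32.6 times lower in P5 organoids than in intestine (exact conditional limits 25.8 to 41.6) and 56.7 times lower in P10 organoids (45.3 to 71.5).

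Against the other members the same ratio gave a like picture. GATA4 was 63.9% of the reads it shared with HNF4A in intestine, 2.76% in P5 and 2.08% in P10 organoids, and the GATA4 to HNF4A ratio was 62.3 and 83.0 times lower than in intestine. With KLF5 the share was 64.2%, 2.62% and 2.43%, and the ratio 66.5 and 71.9 times lower. With FOXA3 the share was 90.2%, 14.7% and 10.5%, and the ratio 53.4 and 78.7 times lower. HNF4G gave 61.2%, 2.51% and 6.80%, and the ratio was 61.1 times lower in P5 organoids and 21.6 times lower in P10 organoids, where HNF4G itself was low. Of the 7 partners, the CDX genes showed the widest gaps. With CDX1 the share of GATA4 went from 96.3% in intestine to 7.31% and 3.26%, a ratio 331 times lower in P5 organoids (244 to 448) and 774 times lower in P10 organoids (577 to 1039). With CDX2 it went from 99.9% to 29.2% and 78.6%, and the ratio was 1771 times lower (650 to 6646) and 199 times lower (65.8 to 798), with the wide limits that 4 CDX2 reads in intestine allow.

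Between the passages the GATA4 ratio went both ways, depending on the partner. It did not differ beyond counting error for HNF4A (0.750 times the P5 ratio, limits 0.547 to 1.03) and KLF5 (0.925, limits 0.674 to 1.27). It was lower at P10 for CDX1 (0.427, limits 0.310 to 0.590), GATA6 (0.576, limits 0.418 to 0.794) and FOXA3 (0.678, limits 0.485 to 0.949), and higher for HNF4G (2.83, limits 2.05 to 3.90) and CDX2 (8.90, limits 5.16 to 15.6). In muscle the 8 genes had 133 reads in all, and GATA4 was 65.4% of its 26 reads shared with GATA6 (44.3 to 82.8). That is near the 66.7% of intestine, so this share alone does not tell gut tissue from muscle.

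**Figure D3:**
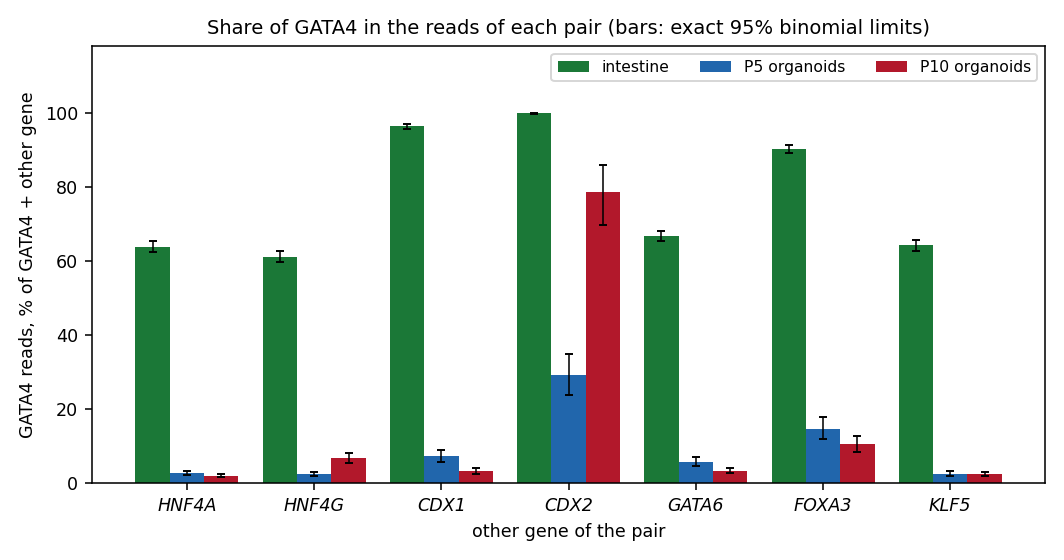
Share of GATA4 in the summed reads of GATA4 and each of the 7 other genes, in percent from 0, for intestine, P5 organoids and P10 organoids, with exact 95% binomial limits. In intestine every bar is at 61.2% or above, and in organoids every bar is at 14.7% or below except those of the CDX2 pair (29.2% and 78.6%).

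As a make-up of the summed reads of the 8 genes, GATA4 was 29.4% in intestine, 0.670% in P5 and 0.593% in P10 organoids. CDX1 was 1.13% in intestine, 8.49% in P5 and 17.6% in P10 organoids. The share of HNF4A was 16.6%, 23.6% and 27.9%, and that of HNF4G was 18.6%, 26.0% and 8.13%. KLF5 held 16.4%, 24.9% and 23.8% of these reads in the same order. Each share is compared between libraries, not between genes. In total the 8 genes had 9941 reads in intestine, 12246 in P5 and 14840 in P10 organoids.

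**Figure D4:**
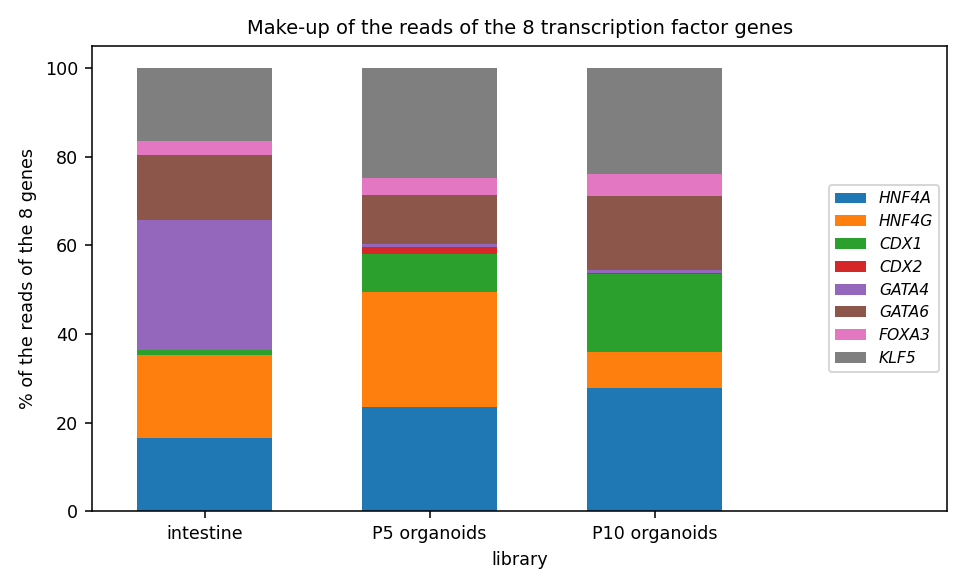
Make-up of the reads of the 8 genes in intestine, P5 organoids and P10 organoids, in percent of their summed reads in each library. The GATA4 band takes 29.4% of the intestine bar and under 1% of either organoid bar, and the CDX1 band widens from 1.13% to 8.49% and 17.6%.

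To allow for the larger epithelial share of RNA in organoids, each member was also set against the summed reads of the 10 epithelial reference genes of the same library. GATA4 had 779 reads per 10000 epithelial reads in intestine, 5.60 in P5 and 5.0 in P10 organoids, 139 and 156 times lower. It was lower with each reference tried: 88.0 and 59.4 times against EPCAM alone, and 78.9 and 60.1 times against the list without its keratin genes. CDX1 had 29.9, 71.1 and 149 reads per 10000 epithelial reads and stayed higher in organoids, by 2.38-fold (1.95 to 2.92) and 4.97-fold (4.11 to 6.06). CDX2 stayed higher in P5 organoids (12.7-fold, limits 4.90 to 47.2) and in P10 organoids could not be separated from intestine with the full reference list (1.28-fold, limits 0.439 to 5.07). With EPCAM alone or the list without keratin genes, CDX2 in P10 organoids was 3.35-fold (1.15 to 13.3) and 3.31-fold (1.14 to 13.1) higher. With the full list the other 5 members were lower per epithelial read in both organoid libraries, with HNF4A at 441, 198 and 235 reads and GATA6 at 389, 91.2 and 141 reads in intestine, P5 and P10 organoids. In P5 organoids the 5 also stayed lower with EPCAM alone and without the keratin genes. In P10 organoids only HNF4G did, at 2.75 and 2.78 times lower, and GATA6 could not be separated from intestine (0.955-fold, limits 0.895 to 1.02, and 0.943-fold, limits 0.883 to 1.01). HNF4A (1.40- and 1.38-fold), FOXA3 (1.33- and 1.31-fold) and KLF5 (1.21- and 1.20-fold) were then higher than intestine at P10. Among the keratin genes, KRT18, a filament protein gene of simple epithelia, had 825 reads in intestine, 7790 in P5 and 33299 in P10 organoids. Without the keratin genes the median log2 fold of the 8 members was -0.36 in P5 organoids in place of -1.17, and 0.32 in P10 organoids in place of -1.05.

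Compared with muscle, the members were higher in the intestinal libraries. All 7 members with enough reads were at least 2-fold higher in intestine than in muscle, against 32.3% of all rows, and none was lower, against 27%. All 8 were higher in P5 organoids, against 33.5% of all rows, and none was lower, against 27.3%. In P10 organoids 7 were higher, against 35.2% of all rows, and none was lower, against 28.5%. CDX1, CDX2, FOXA3 and GATA6 stayed under 10 reads in muscle, so where they were tested they entered only through the other library. Their direction in these counts was therefore largely set by the filter, which was the same for all rows. With TMM or upper-quartile scaling 7 were higher in P5 organoids, since GATA4 was then within 2-fold of muscle (0.99 and 0.86), and with library totals all 8 were higher in P10 organoids. With library totals, 83.3%, 76.4% and 75.5% of the rows past 2-fold were higher than muscle in intestine, P5 and P10 organoids, in place of 54.5%, 55.1% and 55.2%. With quantile normalisation GATA4 was the exception in P10 organoids. The median log2 difference from muscle was 5.93 in intestine, 6.34 in P5 and 5.60 in P10 organoids, and 5.08, 5.87 and 5.06 when genes with no muscle reads were set to their lower bound. CDX1, CDX2 and FOXA3 had no reads in muscle, where the floor of 3 reads is 0.232 CPM. On the log2(value + 1) scale, CDX1 was at least 8.68-fold higher than this floor in intestine, at least 120-fold in P5 organoids and at least 232-fold in P10 organoids. FOXA3 was at least 30.4-fold, 55.0-fold and 62.4-fold higher. CDX2 in P5 organoids was at least 24.1-fold higher and in P10 organoids at least 3.12-fold, and a difference between intestine and muscle was not detectable at this depth. HNF4A, HNF4G, GATA4 and GATA6 had 9 to 19 reads in muscle, between 0.801% and 1.41% of their intestine CPM, and KLF5 stood at 6.42%. Of the 10 epithelial reference genes, KRT18, CLDN4 and CLDN7 had no reads in muscle, EPCAM, KRT8, KRT19 and CLDN3 were at 1.06% to 1.35% of their intestine CPM, and ESRP1, CDH1 and GRHL2 were at 4.09%, 9.17% and 53.6%. Where these muscle reads came from was not tested.

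Relatives of the members from the same families were measured beside them. Of 21 relatives, 18 had at least 10 reads in P5 organoids or intestine, and of these 6 were higher in P5 organoids by 2-fold or more, 8 lower and 4 within 2-fold. In P10 organoids 4 were higher than intestine and 10 lower. Over all rows, 24.9% were at least 2-fold higher and 22.8% lower in P5 organoids, and 28% and 26.1% in P10 organoids. KLF4, a factor of cells that have left the cell cycle, had 243, 781 and 298 reads, with a log2 difference of 1.99 (1.77 to 2.23) in P5 organoids and 0.14 (-0.12 to 0.41) in P10 organoids.

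The 3 relatives furthest below intestine are made in other cells or tissues. GATA3, a factor of T cells, had 392 reads in intestine and none in either organoid library. Against a floor of 3 reads, GATA3 was at least 76.9-fold lower in P5 organoids and 45.1-fold lower in P10 organoids. GATA2, a factor of endothelial and blood cells, had 207, 8 and 0 reads. KLF15, a metabolic regulator of muscle and other tissues, had 76 reads in intestine and none in organoids. The immune and endothelial markers given above moved in the same direction, and their part in these differences was not tested. Within the GATA family, GATA5, which is also made in gut epithelium, had 941 reads in intestine, 392 in P5 and 503 in P10 organoids, with log2 differences of -1.07 (-1.25 to -0.90) and -1.20 (-1.36 to -1.04). GATA5 was singled out after its values were seen, as the relative that shares the epithelium with GATA4 and GATA6. It lay below intestine in both organoid libraries, as GATA4 did, but by about 2-fold.

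Other factors of the epithelium lay in both directions. Of 21 partner factors, 19 were tested in P5 organoids against intestine, with 7 at least 2-fold higher, 4 lower and 8 within 2-fold. The shares of all rows were 24.9% higher and 22.8% lower. In P10 organoids 3 of 20 were higher and 6 lower, against 28% and 26.1% of all rows. These counts do not set the partner factors apart as a list. ELF3, an epithelial ETS factor, had 253 reads in intestine, 1695 in P5 and 2368 in P10 organoids, 3.05 (2.83 to 3.27) and 3.13 (2.91 to 3.35) above intestine. NR5A2, a nuclear receptor of crypt cells, had 574, 1492 and 1227 reads, and TCF7L2, which carries the Wnt signal in the crypt, had 3030, 7037 and 6696.

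The 3 partner factors furthest below intestine in P5 organoids were ONECUT2, CREB3L3 and PRDM1. ONECUT2, a cut-homeobox factor of the proximal small intestine, had 13290 reads in intestine, 221 in P5 and 330 in P10 organoids, with log2 differences of -5.71 (-5.90 to -5.53) and -5.66 (-5.81 to -5.50). CREB3L3, which drives apolipoprotein genes in liver and small intestine, had 869, 12 and 7 reads. PRDM1, a repressor protein made in fetal gut epithelium and in plasma cells, had 832, 153 and 28 reads. Its log2 differences were -2.17 (-2.42 to -1.93) and -4.59 (-5.05 to -4.15). PDX1, the duodenal homeobox factor, had no reads in intestine and P10 organoids and 2 in P5 organoids, so it gave no information on region at this depth.

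Genes that differ along the gut were measured with the same libraries. Of the 5 proximal genes tested, none was at least 2-fold higher in organoids, 4 were lower in P5 and 5 in P10 organoids. Among all rows, 24.9% and 28% were higher in P5 and P10 organoids, and 22.8% and 26.1% were lower. FABP1, a fatty acid carrier, had 341994 reads in intestine, 5328 in P5 and 1825 in P10 organoids. APOA4, an apolipoprotein of jejunal enterocytes, had 63699, 34 and 0 reads. CYBRD1, the duodenal iron reductase gene, had 329, 14 and 95 reads, and SLC40A1, the iron exporter gene, had 2633, 2238 and 328. LCT, the lactase gene, had 24 reads in intestine and 1 in each organoid library. FABP1, APOA4 and LCT are also counted among the enterocyte genes below, so the counts of these lists are not independent.

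The ileal genes did not move as a group. In P5 organoids 3 of 6 were at least 2-fold higher than intestine, 1 was lower and 2 were within 2-fold, against 24.9% and 22.8% of all rows higher and lower. In P10 organoids 1 was higher and 4 were lower, against 28% and 26.1% of all rows. SLC10A2, the ileal bile acid uptake transporter, had no reads in intestine, 4605 in P5 and 343 in P10 organoids, at least 2356-fold and 122-fold higher, and it had 30 reads in muscle. SLC51A and SLC51B encode the transporter that passes bile acids on to the blood. SLC51A had 715 reads in intestine, 1726 in P5 and 372 in P10 organoids, and SLC51B had 462, 1360 and 708. FABP6, the ileal bile acid carrier, had 30, 3 and 0 reads, with 480 in muscle, and so was not higher in organoids. CUBN and AMN, which form the receptor for vitamin B12 bound to its carrier, had 1926, 1743 and 76 reads and 374, 196 and 149 reads.

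The colonic genes CA1, CA4 and AQP8 had 0, 16 and 0 reads in intestine, 3, 34 and 0 reads in P5 organoids and none in P10 organoids. The stomach genes SOX2, BARX1 and GKN1 had no reads in intestine or organoids, and MUC5AC had 1 read in intestine, 1 in P5 organoids and none in P10 organoids. TFF1 and MUC6 had 327 and 32 reads in intestine and none in organoids, so both stomach genes with enough reads were lower. Among the single genes named, GATA4, ONECUT2, FABP1 and APOA4 were lower and CDX1 and SLC10A2 higher in both organoid libraries than in intestine. Other region genes did not follow that order. The proximal gene SLC40A1 was level with intestine in P5 organoids (log2 difference -0.06). Of the ileal genes, FABP6 and AMN were lower in both organoid libraries. CUBN was level in P5 organoids (0.01), and CUBN (-4.70) and SLC51A (-1.22) were lower in P10 organoids. The origin of these differences was not tested.

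**Figure D5:**
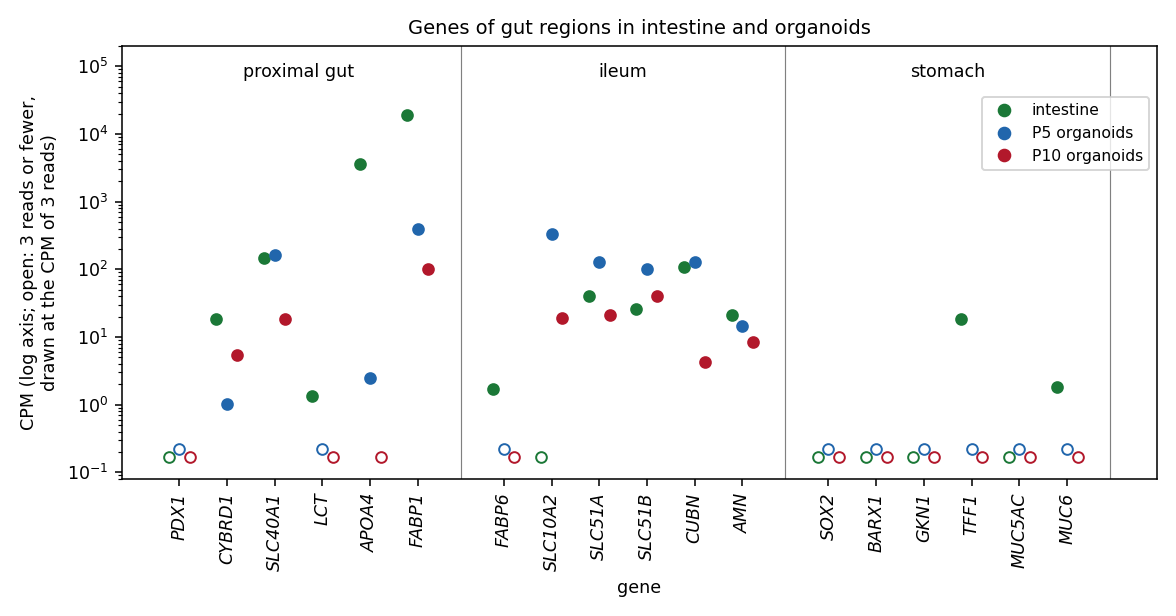
CPM on a log axis of genes of the proximal gut, ileum and stomach in intestine, P5 organoids and P10 organoids, with open circles for 3 reads or fewer drawn at the CPM of 3 reads. FABP1 and APOA4 are highest in intestine, while SLC10A2 has no reads in intestine and stands out in both organoid libraries (4605 and 343 reads).

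Enterocyte genes known to depend on HNF4, CDX and GATA factors were mostly lower in organoids. Of these factors, HNF4A was higher than intestine with quantile normalisation but lower per read of the full epithelial reference list. With the 2 other references, HNF4A in P10 organoids was 1.40- and 1.38-fold higher than intestine. GATA4 was lower with quantile normalisation and per read of the full list. CDX1 was higher on both of these scales, as was CDX2 in P5 organoids. A link between factors and enterocyte genes was not tested. Of 16 enterocyte genes tested, 4 exceeded intestine by 2-fold or more in P5 organoids, 10 were lower and 2 within 2-fold. The shares of all rows were 24.9% higher and 22.8% lower. In P10 organoids 1 was higher and 14 were lower, against 28% and 26.1% of all rows. Between the passages none of 13 was higher at P10 and 12 were lower, against 16.1% and 16.6% of all rows. The peptidase gene ANPEP had 125 reads in intestine, 28104 in P5 and 243 in P10 organoids. The sucrase-isomaltase gene SI, a classic target of CDX2, had 2288, 6210 and 797 reads, and KRT20, a keratin of differentiated cells, had 23086, 31917 and 12134. SI and KRT20 were highest in P5 organoids and lowest in P10 organoids, whereas ANPEP was lowest in intestine. With 1 library per group, such orders do not tell which factor a gene follows. The apolipoprotein genes APOC3 and APOA1, together with APOA4, were furthest below intestine: APOC3 had 3126, 1 and 0 reads, and APOA1 had 19846, 136 and 0.

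The genes most like each member were sought by the root mean square difference of their centred log2 levels over the 4 libraries, over the 15051 rows that reached 50 reads in some library. For HNF4A they were LOC540627 (0.0748) and ANO9 (0.0874), and for HNF4G they were SYNE4 (0.114) and LIPH (0.117). For CDX1 they were AURKB (0.213) and MKI67 (0.217), which had 124 and 128 reads in intestine, 836 and 891 at P5, 2176 and 2168 at P10 and none in muscle. CDX2 had no gene as near, with CDH26 at 0.442 and PAQR5 at 0.504. GATA4 lay nearest to MILR1 (0.242) and F10 (0.283), which had 326 and 366 reads in intestine and 7 to 13 in each organoid library. GATA6 lay nearest to AGER (0.116) and LOC104975286 (0.133), FOXA3 to FAM110C (0.131) and LOC104968705 (0.146), and KLF5 to ALG5 (0.0829) and LOC112447845 (0.0947). With 4 libraries such likeness is a description of the pattern of levels and nothing more.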

How the data were processed

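QuantSeq 3′ mRNA-Seq libraries of 4 samples, 1 per group, were analysed. The authors aligned reads with Bowtie2 and counted unique and multiple alignments per gene with Bedtools; the deposited values are whole-number read counts without normalisation. Reads of near-identical copies could be shared. The genome build is not given in the sources used here, so no coordinates are printed, and no sequences were available for the members. All 8 symbols are in the RefSeq table of ARS-UCD2.0, where no other gene overlaps them.

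The members and lists were chosen with earlier results of these data known. Counts of 22200 rows with a read were quantile-normalised over the 4 libraries, as the paper's methods state, and used as log2(value + 1). Exact Poisson limits of each count were carried through the normalisation and combined by the square-and-add rule. They cover counting error only: amplified copies of 1 molecule are counted as separate reads. For a pair of libraries, rows that reached 10 reads in 1 of them were set against 2-fold (called tested), with no p-value. A library with no reads was set to a floor of 3 reads, and such folds are lower bounds. Shares have exact binomial limits, and ratios exact conditional limits.

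The genes named were the members, the 3 largest differences in each direction (P5 organoids against intestine) in the lists of relatives, partner factors and enterocyte genes, all genes of the region lists, and the 2 genes most like each member. Some genes of these lists are not reported here. Some genes belong to 2 lists: PDX1 (partner factors and proximal gut), GRHL2 (partner factors and epithelial reference), and LCT, APOA4 and FABP1 (enterocyte genes and proximal gut). GATA5 and KRT18 were named after their values were seen. The alternatives were library totals, with or without RN18S1, edgeR's TMM and upper-quartile scaling, a pseudocount of 0.1 or 5, rows with at least 10 reads in any library, rows summed by symbol, and 2 other epithelial references. Quantile normalisation without muscle was added after seeing the data. The quantile normalisation was checked against limma and on simulated counts. R 4.3.3 was used with limma 3.58.1 and edgeR 4.0.16, and Python 3.11.15 with scipy 1.17.1, pandas 2.3.3, matplotlib 3.10.9 and numpy 2.4.6.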

Additional observations from a re-analysis of the deposited data

Results flagged for a closer look

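HNF4G was above intestine at P5 (log2 difference 0.96) and below it at P10 (-0.93), both past counting error. The difference between the passages was not tested, since each passage has 1 library. Under the alternative scalings, pseudocounts and filters the values lay between 0.92 and 1.18 at P5 and between -0.93 and -0.61 at P10.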

How the results depend on the processing

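All 400 values of single members under other scalings, pseudocounts and filters kept the direction of their log2 difference, and 68 lay outside the counting limits. GATA4 against intestine lay between -4.92 and -4.74 in P5 organoids and between -5.28 and -5.03 in P10 organoids. The number of members that exceeded intestine by 2-fold in P5 organoids was 5 in place of 3 with library totals, with library totals without RN18S1 and with upper-quartile scaling. The median log2 difference of the members against intestine was 1.18 in P5 organoids and 1.18 in P10 organoids with library totals, and 1.19 and 1.13 without RN18S1. Between the passages it was -0.13 with upper-quartile scaling. Against muscle, library totals gave medians of 6.62 (intestine), 7.50 (P5 organoids) and 6.50 (P10 organoids), where the median of all rows also moved, from 0.08, 0.13 and 0.19 to 1.31, 1.29 and 1.41. A pseudocount of 0.1 gave 6.68 in P10 organoids against muscle, since genes with no muscle reads depend on it. Per epithelial read, the median log2 fold of the members was -0.51 in P5 organoids and 0.34 in P10 organoids against intestine with EPCAM alone, and -0.36 and 0.32 without the keratin genes, so that P10 organoids changed sides. Between the passages it was 0.83 and 0.66 in place of 0.10. Among single members, HNF4A was then 0.98 and 0.81 in place of 0.25, and FOXA3 1.13 and 0.95 in place of 0.40. KLF5 (0.68 and 0.51 in place of -0.05) and GATA4 (0.57 and 0.39 in place of -0.16) changed sides. With the full list neither of these was beyond counting error, nor was GATA4 without the keratin genes. Per epithelial read in P10 organoids against intestine, 3 members also changed sides: HNF4A to 0.48 and 0.47, FOXA3 to 0.41 and 0.39, and KLF5 to 0.28 and 0.26. The GATA4 shares did not change when rows were summed by symbol. No paired analysis was possible because each group has 1 library. Depth limits CDX2, with 4 reads in intestine, and all members in muscle, with 133 reads in total.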
